A study of Mus musculus with 6 samples.

Results

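Hdac1 is a histone deacetylase, an enzyme that removes acetyl groups from histone tails. It has no sequence-specific DNA-binding domain of its own and works as the catalytic subunit of corepressor complexes such as Sin3, NuRD and CoREST, which DNA-bound factors bring to chromatin. In embryonic stem cells these complexes are known both for holding lineage genes down and for occupying active genes. The regions described here carried an Hdac1 peak and no peak of the other 4 proteins that were mapped in the same series.

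All libraries came from J1 mouse embryonic stem cells that contained BirA, a bacterial ligase that adds biotin to tagged proteins, and that were grown on gelatin with serum and leukemia inhibitory factor. No other genotype, treatment or time point was compared. Chromatin immunoprecipitation and sequencing was done with antibodies for Hdac1, for Tgif1 (a homeodomain corepressor that recruits histone deacetylases) and for Smad3 (which carries TGF-beta and Activin signals). Nanog (a homeodomain protein central to pluripotency) and Tgif2 (the paralog of Tgif1) were pulled down with streptavidin beads. Each protein had 1 library and 1 deposited peak list, so no value had a replicate check, and the control precipitation from BirA cells was not used here.

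Peaks of the 5 lists were merged wherever they overlapped by 1 bp or more on chromosomes 1 to 19, and regions holding Hdac1 peaks only were kept. This gave 1838 Hdac1-alone regions among 32551 merged regions, or 5.65% (95% Wilson interval 5.40 to 5.90). Peaks within a list did not overlap, so every Hdac1-alone region was a single Hdac1 peak. These peaks made up 11.2% (10.7 to 11.7) of the 16398 Hdac1 peaks on these chromosomes. The regions were chosen by measured values, the presence and extent of listed peaks, so peak strength, width and the distance to other peaks are given as descriptions without a test. Intervals cover counting error over peaks, which are not replicates of a condition. "Alone" means that no peak was listed. The weakest listed peak held 30 tags (sequenced reads) for Tgif1, 33 for Tgif2, 16 for Nanog and 11 for Smad3, and signal under those limits was not measured here.

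Among regions with Hdac1, the Hdac1-alone class came next after the most crowded combinations. Tgif1 with Tgif2 and Hdac1 held 4895 regions, 30.6% of those with Hdac1, and the same factors with Nanog held 3371, or 21.1%. The Hdac1-alone class followed with 11.5% (11.0 to 12.0), and Hdac1 with Nanog alone, at 1733 regions and 10.8% (10.4 to 11.3), was of nearly the same size. Regions in which Hdac1 had 1 Tgif paralog as its only partner were fewer, 1258 with Tgif2 and 641 with Tgif1. Hdac1 with Smad3 as its only partner occurred in 6 regions.

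**Figure D1:**
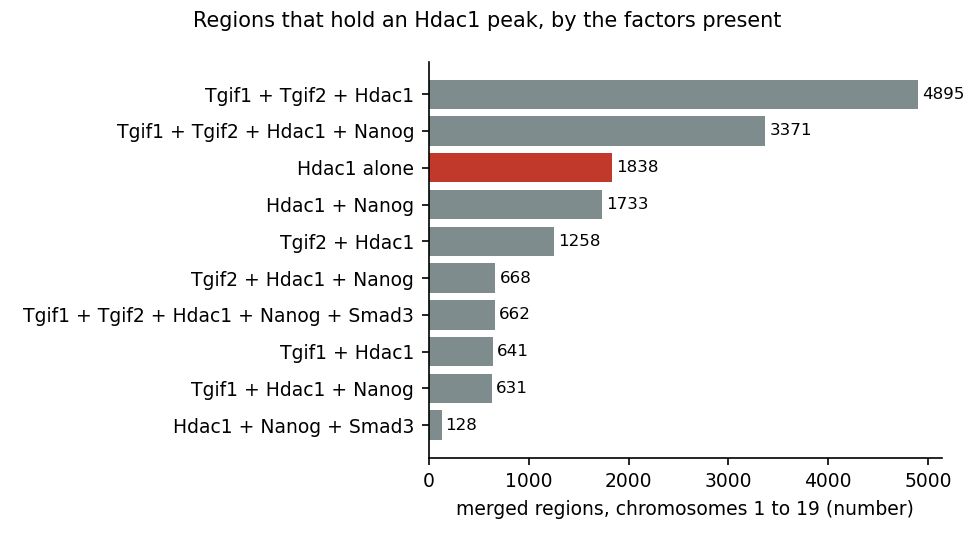
Number of merged regions on chromosomes 1 to 19 (x axis) for the 10 most frequent combinations of factors that include Hdac1 (y axis). The Hdac1-alone bar, in red, stands at 1838 regions, close to the 1733 of Hdac1 with Nanog and below the 4895 of Tgif1 with Tgif2 and Hdac1.

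The share of a list that stood alone differed widely between the proteins. It was 11.2% for Hdac1, 8.98% (8.55 to 9.43) for Tgif1 and 17.8% (17.2 to 18.3) for Tgif2. For Nanog it was 42.5% (41.8 to 43.2), and for the short Smad3 list of 1199 peaks it was 6.17% (4.94 to 7.68). The Hdac1 share thus lay between those of the Tgif paralogs and far under that of Nanog.

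Which other list was present set how many Hdac1 peaks counted as alone. Leaving out the Nanog list raised the number from 1838 to 3590 regions, leaving out Tgif2 raised it to 3141, and leaving out Tgif1 raised it to 2522. The Smad3 list made little difference, with 1845 regions without it. Without both Tgif lists the number reached 8916, and 54.4% of Hdac1 peaks then stood alone. Of the regions with Hdac1 and a Tgif protein, 8938 held both paralogs, or 72.7% (72.0 to 73.5), and 3348 held 1 of them. When only the stronger part of the other lists was used, from each list's median fold upward, 6500 regions counted as Hdac1 alone.

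The Hdac1 peaks that stood alone held few tags, but their fold enrichment was close to that of the other Hdac1 peaks. The lists have no header, so fold enrichment (a ratio of a peak to its background) and tag number were recognised by their values. In Hdac1-alone regions the tag number was 28 at the lowest, 35 at the median (34 to 35) and 216 at the highest. Hdac1 peaks with another factor ran from 28 through a median of 50 (49 to 50) to 748. The middle 50% of Hdac1-alone peaks held 31 to 42 tags, against 38 to 67 for the others, so the groups overlapped but the Hdac1-alone peaks crowded at the low end of the list. Of the 1838 Hdac1-alone peaks, 301 reached the list's median of 47 tags, which was 16.4% (14.8 to 18.1), against 51.5% of all Hdac1 peaks. Only 9 lay in the upper 10% of the list by tags, or 0.490%, where 10.3% of all Hdac1 peaks lay.

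By fold enrichment the picture was different. Hdac1-alone peaks ranged from 4.40-fold to 78.5-fold with a median of 10.27 (10.18 to 10.65), and the other Hdac1 peaks from 3.77-fold to 199-fold with a median of 10.65 (10.59 to 10.76). At or above the list's median fold stood 879 Hdac1-alone peaks, 47.8% (45.5 to 50.1), beside 50.1% of all Hdac1 peaks. In the upper 10% by fold there were 171, or 9.30% (8.06 to 10.7), where 10% of the list lay. These shares were near the background of the list, so by fold the Hdac1-alone peaks were spread over it much like the rest. The peaks were also narrower, with a median of 901.5 bp (884 to 916) against 1065 bp (1057 to 1074). Reaching the median width were 28.8%, against 50.1% of all Hdac1 peaks. Width enters the overlap rule. With every peak set to 250 bp on either side of its summit, 2593 regions were Hdac1 alone, with medians of 9.78-fold and 38 tags. The part of width in the counts was not tested further.

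**Figure D2:**
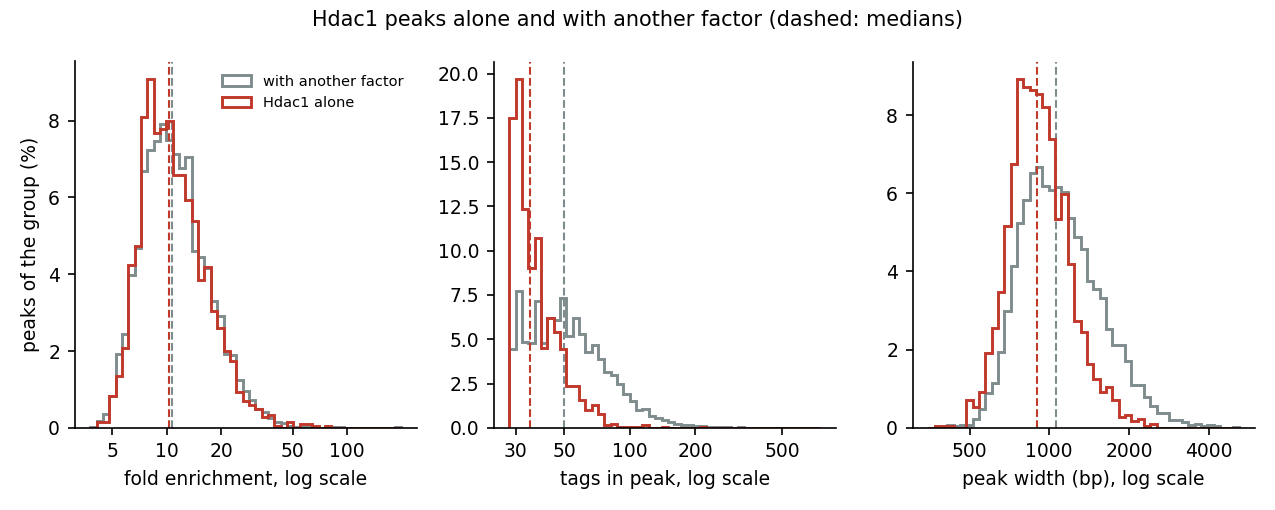
Distribution of fold enrichment, tags per peak and peak width in bp (x axes, log scale) as a percentage of each group (y axis), for Hdac1-alone peaks in red and Hdac1 peaks with another factor in grey; dashed lines mark medians. The medians nearly coincide for fold (10.27 and 10.65) and stand apart for tags (35 and 50) and width (901.5 and 1065 bp).

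The number of tags in the Hdac1 peak rose with the number of factors in the region. The median was 35 tags in Hdac1-alone regions, 39 with 2 factors, 50 with 3, 60 with 4 and 82 with all 5. Tags per kb of peak took the same order, from a median of 39.4 per kb in Hdac1-alone regions to 42.5, 44.5, 50.5 and 61.2 per kb. Fold did not follow this order at each step, with medians of 10.27, 10.65, 10.01, 11.42 and 13.01.

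Hdac1 peaks differed with the partner present. Beside Nanog as the only partner, Hdac1 peaks held a median of 37 tags (37 to 38) and were 848 bp wide (839 to 858), which is narrower than the Hdac1-alone peaks. Their median fold of 11.99 (11.64 to 12.33) was above the 10.27 of Hdac1-alone peaks. Beside Tgif1 and Tgif2 without Nanog, the Hdac1 peaks held 51 tags and were 1144 bp wide, yet their median fold was 9.74 (9.59 to 9.89), below that of Hdac1-alone peaks. With a single Tgif paralog the medians were 40 tags and 9.62-fold for Tgif1, and 41 tags and 9.63-fold for Tgif2. Thus the Hdac1-alone peaks were closer to those with Nanog in tag number and width, and lay between the Nanog and the Tgif combinations in fold. In tags per kb they were instead closer to those with a single Tgif paralog. Their median of 39.4 per kb stood beside 40.1 with Tgif1, 41.4 with Tgif2 and 44.3 with Nanog.

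The summit of the Hdac1 peak lay off its centre by a median of 104 bp in Hdac1-alone regions, against 127 bp in the others. Relative to the distance from centre to edge this was 23.8% (22.7 to 25.0) and 24.5% (24.1 to 25.0), so the shape differed little once width was taken into account. Peaks with Nanog as the only partner were more centred, at 17.8% (16.7 to 19.1). Those with Tgif1 and Tgif2 were less so, at 27.4% (26.6 to 28.1). With a single Tgif paralog the value was 27.8% for Tgif1 and 25.8% for Tgif2.

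Ordering the Hdac1 list into 5 equal bins showed the same contrast. By tags, 27.3% (25.8 to 28.8) of peaks were alone in the lowest bin, which ran from 28 to 34 tags. The share then fell through 15.1%, 8.78% and 3.78% to 1.13% (0.820 to 1.55) in the highest bin, which started at 70 tags. By width it fell from 18.1% to 3.20%. By fold it was 11.3%, 12.1%, 11.4%, 10.9% and 10.2% from the lowest to the highest bin. The difference between the outer bins by fold was -1.04 percentage points, a description without a test. When every peak was given the same width, 250 bp on either side of its summit, the difference by fold was -8.85 points. The share alone was then 20.3% in the lowest fold bin and 11.5% in the highest.

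**Figure D3:**
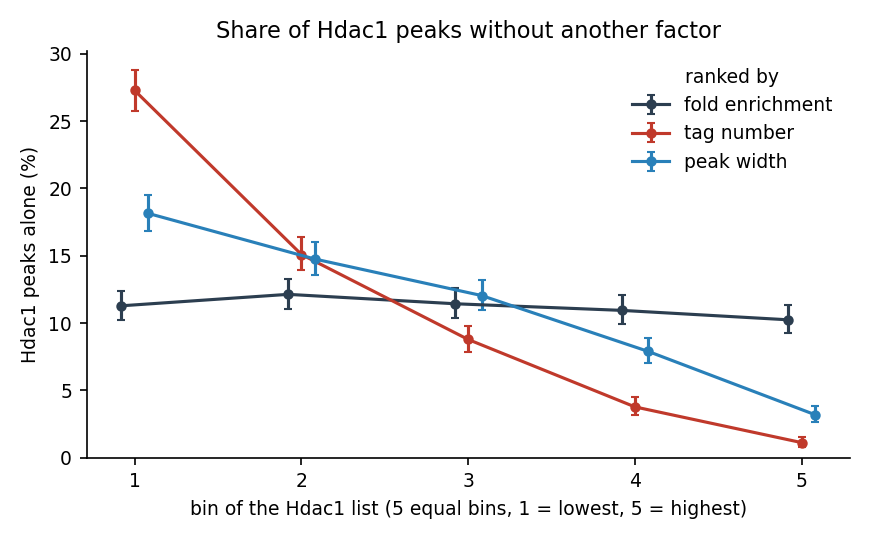
Share of Hdac1 peaks that stood alone, in percent (y axis), in 5 equal bins of the Hdac1 list ordered by fold enrichment, tag number or peak width (x axis); bars are 95% Wilson intervals. By tags the share drops from 27.3% to 1.13%, by width from 18.1% to 3.20%, and by fold it stays between 10.2% and 12.1%.

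Among peaks of similar tag number, the Hdac1-alone peaks were wider than the others, although over the whole list they were narrower. In the lowest tag bin their median width was 805.5 bp (791 to 817), against 778 bp (770 to 784). In the next bins it was 948 against 891 bp, 1106.5 against 1043 bp and 1391 against 1244 bp. Width enters the overlap rule, so these widths are descriptions without a test. In the highest bin only 37 peaks were alone, and 1774 bp (1433 to 1932) and 1681 bp (1658 to 1703) overlapped. In the lowest tag bin, 44.2% (36.2 to 52.5) of the 138 peaks at or above the list's median width were alone, and 26.5% (25.0 to 28.1) of the 3141 narrower ones. In the next bins the shares were 21.0% and 13.3%, 10.3% and 7.22%, and 4.11% (3.41 to 4.96) and 2.61% (1.68 to 4.04), the last pair with overlapping intervals. In the highest bin the order turned, with 1.10% (0.789 to 1.54) of the wider and 1.55% (0.527 to 4.45) of the narrower peaks, whose intervals also overlapped. Over the whole list the tags of Hdac1-alone peaks were spread more thinly, with medians of 39.4 and 45.9 tags per kb for Hdac1-alone and other peaks.

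In each tag bin the median fold was lower for the Hdac1-alone peaks, and the distance was largest in the 2 upper bins. These values were not tested. In the lowest tag bin the median fold was 10.9 (10.5 to 11.4) for Hdac1-alone peaks and 11.0 (10.8 to 11.2) for the others. In the second bin it was 10.27 (9.89 to 10.73) against 10.65 (10.39 to 10.84). In the third it was 9.78 (9.07 to 10.27) against 10.54 (10.27 to 10.76). In the fourth bin it was 8.81 (7.79 to 9.89) against 10.27 (10.10 to 10.59), and in the highest 8.43 (7.44 to 10.59) against 10.88 (10.65 to 11.06). The Hdac1-alone peaks with many tags thus had a lower median fold than other Hdac1 peaks with many tags. In the highest bin, however, they also held fewer tags, with medians of 75 (73 to 83) and 87 (86 to 88).

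Low tag number among peaks without a partner was shared by all 5 lists. The median of single-factor peaks divided by that of shared peaks was 0.700 for tags in the Hdac1 list, 0.696 for Tgif1, 0.694 for Tgif2, 0.649 for Nanog and 0.589 for Smad3. For fold the ratio was 0.964 for Hdac1, 0.815 for Tgif1, 0.898 for Tgif2, 1.03 for Nanog and 0.987 for Smad3. Hdac1-alone peaks had their median at percentile 46.7 of the Hdac1 list by fold and at percentile 22.0 by tags. Tgif1-alone peaks stood at percentile 35.0 and 22.9 of their own list. By fold, the Hdac1-alone peaks were therefore closer to the rest of their list than the Tgif1-alone peaks were to theirs. This was not particular to Hdac1. The peaks alone in the Tgif2, Smad3 and Nanog lists stood at percentile 43.4, 48.4 and 50.9 by fold.

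A few Hdac1-alone peaks were among the strongest of the list by fold. The highest ranked 12 in the list, 12 were among the leading 100 peaks and 100 among the leading 1000. By tags the highest ranked 46, and 1 was among the leading 100 and 7 among the leading 1000. For comparison, Hdac1-alone peaks were 11.2% of the list.

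The Hdac1-alone region of highest fold was chr13:55072026-55072756 (mm9, as are all coordinates here), with 78.5-fold enrichment and 63 tags in 730 bp. Its nearest peak of another factor was a Tgif2 peak 14042 bp away in a region that also held Hdac1. It was followed by chr2:32873456-32874163 with 65.65-fold and 56 tags, 31869 bp from a Nanog peak. The next was chr9:21754618-21755182 with 62.79-fold and 61 tags, 2123 bp from a Tgif2 peak. All 3 were narrower than the class median of 901.5 bp.

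The other regions of the leading 10 had 61.37-fold down to 41.39-fold. They were chr4:130671103-130671693, chr9:20661359-20662155, chr1:74981822-74982332, chr5:121528425-121529008, chr7:25144084-25144711, chr15:73906175-73906936 and chr7:4130007-4130606. They held 35 to 57 tags in 510 to 796 bp. The nearest other factor lay 3905 bp to 68579 bp away. A Tgif2 peak was nearest for 5 of the 10, a Nanog peak for 3 and a Tgif1 peak for 2.

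Ranking by tags named other regions, and the fold of the leading 5 ran from 5.63 to 18.02, on both sides of the class median of 10.27. The first was chr8:19698026-19700059 with 216 tags in 2033 bp and 8.39-fold enrichment. A Tgif1 peak with 368 tags, in a region shared by Tgif1 and Tgif2, lay 2443 bp from it, while the nearest other Hdac1 peak was 162192 bp away. Next came chr1:153391047-153393549 with 147 tags and 16.22-fold, and chr17:6432190-6434283 with 120 tags and 7.51-fold. The latter lay 1986 bp from a region with Tgif1, Tgif2 and Hdac1. The last of the 5 held 117 tags each, chr1:121393501-121394795 at 18.02-fold and chr5:77709910-77712133 at 5.63-fold. No region was among both the leading 10 by fold and the leading 5 by tags.

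The widest Hdac1-alone region was chr15:101003926-101006464, 2538 bp with 97 tags and 5.57-fold. It was followed by the chr1:153391047-153393549 region of 2502 bp, and by chr12:88222362-88224704 of 2342 bp with 79 tags and 6.04-fold. Each held more than the 42 tags of the class's upper quartile.

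Hdac1-alone regions were not isolated from the other factors. The gap from the edge of the region to the nearest peak of any other factor had a median of 7349 bp (6819 to 8218), with the middle 50% between 2016 and 21197 bp. Within 10 kb of another factor's peak were 1033 of the 1838, or 56.2% (53.9 to 58.5), and within 1 kb were 296, or 16.1% (14.5 to 17.9). Only 63 regions, 3.43% (2.69 to 4.36), lay over 100 kb from any other factor. Counted between summits the median was 8333 bp. To the stronger peaks of the other lists, from each list's median fold upward, the median gap was 14627.5 bp.

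The median gap was 13991.5 bp to Tgif2, 16266 bp to Tgif1, 18411 bp to Nanog and 351920 bp to Smad3. The intervals of Tgif2 (12571 to 15305) and Tgif1 (14839 to 17855) overlapped, as did those of Tgif1 and Nanog (17111 to 20920). The nearest peak belonged to Tgif2 for 718 regions (39.1%), to Nanog for 642 (34.9%), to Tgif1 for 462 (25.1%) and to Smad3 for 16 (0.871%). Those lists made up 35.6%, 31.6%, 30.5% and 2.25% of the other factors' peaks, so the order was that of list length.

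Other single-factor regions gave gaps of a similar size or longer. Tgif1-alone regions had a median gap of 6926.5 bp (6061 to 7736) to any other factor and Tgif2-alone regions one of 8692 bp (8047 to 9524). Both intervals overlapped that of Hdac1-alone regions. Nanog-alone regions lay farther from other factors, with 16708 bp (15826 to 17634), and 40.1% of them had another factor within 10 kb. The 74 Smad3-alone regions had a median of 14253.5 bp (7059 to 21900). The lists that count as other differ between these groups.

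**Figure D4:**
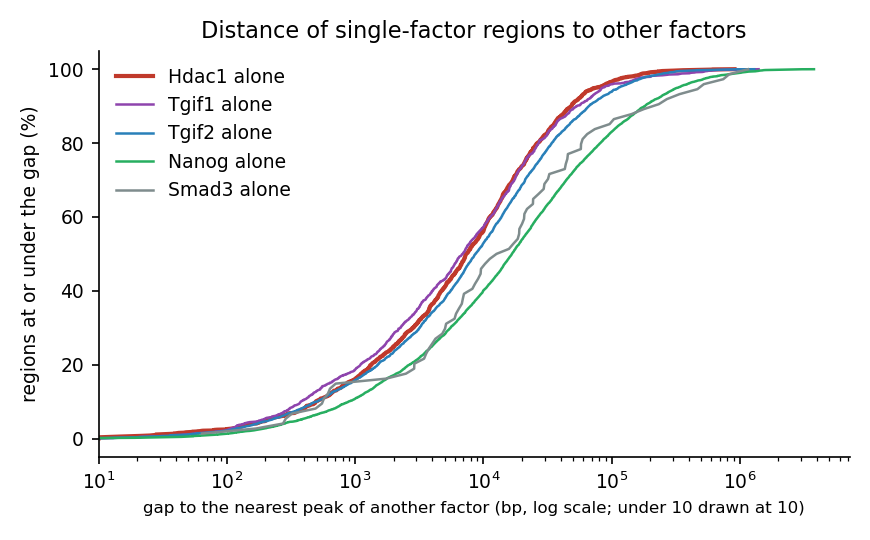
Cumulative share of single-factor regions, in percent (y axis), by the gap in bp to the nearest peak of any other factor (x axis, log scale). The Hdac1-alone curve runs with those of Tgif1 and Tgif2, with 56.2% within 10 kb, and the Nanog-alone curve lies to the right, with 40.1% within 10 kb.

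The surroundings of Hdac1-alone regions were close to those of other Hdac1 peaks. Another region with a peak of another factor lay within 10 kb of 56.6% (54.4 to 58.9) of Hdac1-alone regions, where the share over all Hdac1 peaks was 58.3%. Within 1 kb the shares were 16.9% (15.3 to 18.7) and 18.3%. Another Hdac1 peak lay within 10 kb of 42.9% (40.6 to 45.1), against 44.7% of all Hdac1 peaks, and within 100 kb of 89.8%, against 89.3%. The median gap to the next Hdac1 peak was 12987 bp for Hdac1-alone peaks and 12990 bp for the others. Within 50 kb on each side, the median number of regions with another factor was 3 for both groups, and 9.68% and 10.5% had none. All these values were near the background of the Hdac1 list.

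The combined classes differed in the share with another region within 10 kb. Another region with any factor other than Hdac1 lay within 10 kb of 68.9% (67.4 to 70.4) of Hdac1 peaks with Tgif1, Tgif2 and Nanog. The share was 49.9% (48.5 to 51.3) for those with Tgif1 and Tgif2 and 52.9% (50.5 to 55.2) for those with Nanog. With a single Tgif paralog it was 56.3% (52.4 to 60.1) for Tgif1 and 55.2% (52.4 to 57.9) for Tgif2. Both were close to the 56.6% of Hdac1-alone regions.

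The regions next to Hdac1-alone regions held the factors in about the shares seen over all Hdac1 peaks. The nearest region with another factor also held Hdac1 for 942 of 1838, or 51.3% (49.0 to 53.5), against 48.9% for all Hdac1 peaks and 46.1% (45.5 to 46.6) of all 30713 regions with another factor. It held Tgif2 in 60.3%, Tgif1 in 53.4%, Nanog in 51.8% and Smad3 in 4.52%. Over all Hdac1 peaks these shares were 61.4%, 53.2%, 52.5% and 4.27%. Hdac1 peaks with Nanog alone had Nanog in 63.0% (60.7 to 65.3) of nearest regions, whereas those with Tgif1 and Tgif2 had it in 41.8% (40.5 to 43.2). The Hdac1-alone value of 51.8% lay between these combinations.

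Closeness to another factor went with little change in the tag number of the Hdac1 peak, while median fold was lower in the near bands. The median tag number was 35 in the 296 regions up to 1 kb from another factor, 34 in the 737 at 1 to 10 kb, 35 in the 742 at 10 to 100 kb and 33 in the 63 beyond. Median width was 927, 911, 884.5 and 850 bp in the same order. Median fold was 9.93 (9.42 to 10.4) and 9.96 (9.65 to 10.27) in the near bands and 11.1 (10.6 to 11.5) and 11.5 (9.78 to 15.7) in the far ones. The fold interval at 10 to 100 kb lay wholly above those of both nearer bands. The fold intervals of the outermost bands, the farthest with only 63 regions, overlapped. The difference between bands was not tested.

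At the edge of the rule, the closest Hdac1-alone region was chr2:32208493-32209240 with 12.81-fold and 28 tags, which touched a Tgif1 peak with a gap of 0 bp. The next were chr15:96116734-96117771 (3 bp from Tgif2), chr11:120458383-120459330 (4 bp from Tgif1), and chr11:84577779-84578529 and chr11:101950187-101951049 (7 bp each, from Nanog and Tgif1). Their tags ran from 28 to 41. Just outside the rule, chr4:151733718-151734296 with 9.91-fold and 29 tags overlapped a Tgif1 peak by 3 bp, and chr15:76497479-76498349 with 11.42-fold and 35 tags overlapped a Tgif2 peak by 4 bp. The next, on chromosomes 8, 16 and 3, overlapped by 11, 12 and 19 bp in sum. A gap of up to 100 bp was found for 47 Hdac1-alone regions, out of the 1838.

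At the other end, the Hdac1-alone region farthest from any other factor was chr13:87147214-87147941, 909267 bp from a Nanog peak, with 7.98-fold and 33 tags. The next were a pair on chromosome 10, chr10:31176458-31177277 with 28.54-fold and 48 tags and chr10:31164799-31166055 with 12.18-fold and 51 tags. They lay 612478 and 600819 bp from the nearest Tgif2 peak and 10403 bp from each other. This pair was thus a place where only Hdac1 peaks were listed over a long stretch.

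Across chromosomes the share of Hdac1 peaks that stood alone ran from 6.71% (5.41 to 8.29) on chromosome 1 to 14.1% (11.7 to 17.0) on chromosome 3. Chromosome 1 held 78 Hdac1-alone regions among 1163 Hdac1 peaks, and its interval lay wholly below the 11.2% of all chromosomes. The interval of chromosome 3 lay above it by a small margin, and among 19 intervals some can miss that value by counting error. Next lowest was chromosome 13 with 9.79% (7.74 to 12.3), whose interval included that value. The Hdac1 peaks of chromosome 1 shared a merged region with other factors more often. Nanog was in the region of 61.0% of these peaks, against 45.3% on chromosomes 2 to 19, and Tgif2 of 75.8% against 68.4%. For Tgif1 the shares were 66.7% and 65.2%. The median Hdac1 peak held 54 tags on chromosome 1 and 47 elsewhere, with a median fold of 9.39 and 10.76, and the part of these differences in the low share was not tested. Without chromosome 1 the class held 1760 regions, 11.6% of Hdac1 peaks.

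**Figure D5:**
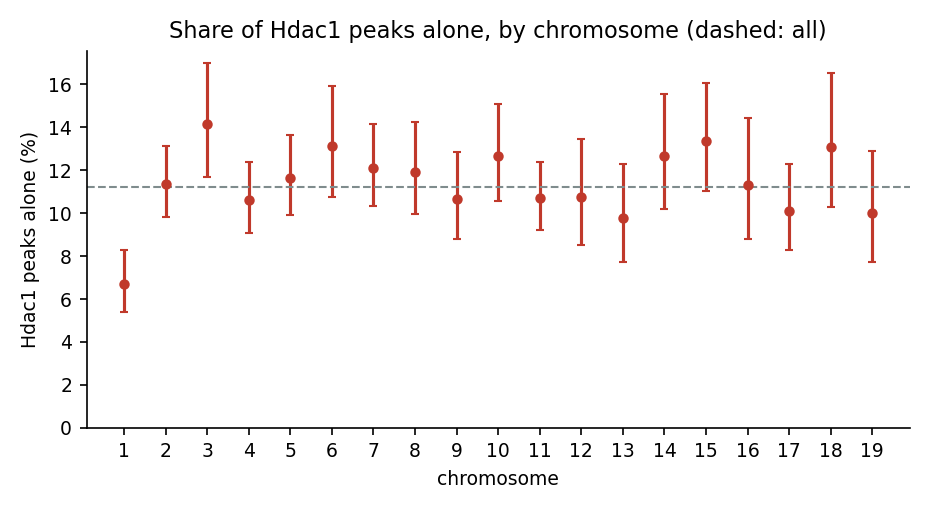
Share of Hdac1 peaks that stood alone, in percent (y axis), on each of chromosomes 1 to 19 (x axis); bars are 95% Wilson intervals and the dashed line is the share over all. Chromosome 1 is lowest at 6.71%, and chromosome 3 is highest at 14.1%.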

How the data were processed

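Peak lists of 5 libraries in the 6-sample series were used. Per the submitters' processing notes, the authors worked on build mm9 with BWA 0.5.9-r16 and with MACS. The peak-calling settings, the control library of each list and the library depths are not given in the sources used here. The deposited lists have no header. Per the values, the deposited columns hold the position, a fold enrichment (ratio), a whole-number tag count and the summit. Whether starts count from 0 or 1 is not stated, and coordinates are unchanged. Touching ends did not count as overlap.

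Overlapping peaks were merged, and the members were checked with bedtools 2.31.1, which gave the same 1838 with 0 differing. The merging code was also run on simulated data, made of Hdac1 peaks and copies of them shifted by up to 200 bp. The narrowest Hdac1 peak was 349 bp, so each copy had to overlap its source. That run could therefore check the code only. Of the deposited Hdac1 peaks, 108 outside chromosomes 1 to 19 were left out. Shares have 95% Wilson intervals and medians have order-statistic intervals. Python 3.11.15, NumPy 2.4.6, pandas 2.3.3, SciPy 1.17.1 and matplotlib 3.10.9 were used. The members, lists and comparisons were chosen with earlier results of these data known.

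Named regions were the 10 of highest fold, the 5 with most tags, the 3 widest, the 3 with the longest gap, the 5 with the shortest gap and the 5 just outside the rule. Regions on chromosome 18 were counted but not named. Planned work on genes, base composition and motifs was not run, because the reference tables at hand belong to another build than mm9. No gene or sequence is therefore given for a region.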

Additional observations from a re-analysis of the deposited data

How the results depend on the processing

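The number of Hdac1-alone regions stayed within 1.5 times of 1838 in 10 of 15 alternatives, from 1513 (peaks merged within 1000 bp) to 2593 (every peak 250 bp either side of its summit). With each list limited to its stronger peaks by fold, from the median upward, the number was 2069, but only 8216 Hdac1 peaks remained, so the share alone was 25.2% in place of 11.2%. The number left the limit with summits within 200 bp (3981), other lists at or above their median fold (6500), the Tgif2 list left out (3141), the Nanog list left out (3590) and both Tgif lists left out (8916). The last of these, leaving out chromosome 1 and counting touching ends as overlap (1837) were added after the data were seen. With these peaks of equal width, the medians in the class became 9.78-fold and 38 tags, outside their intervals. The difference in the share alone between the highest and the lowest bin, -1.04 points by fold, was -26.1 by tags, -14.9 by width and -8.85 with peaks of equal width. The median distance to another factor, 7349 bp, became 8333 bp between summits and 14627.5 bp with other lists at or above their median fold. No paired analysis was possible because each factor had 1 library. Depth is unknown, so a missing peak cannot be told from a weak one.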

Other observations

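Hdac1-alone regions had another Hdac1-alone region nearby about as often as other Hdac1 peaks had one. Within 50 kb on each side, 75.0% of Hdac1-alone regions had no other Hdac1-alone region, against 76.9% of the other Hdac1 peaks, with means of 0.312 and 0.288 such regions. Of the 1838, which make up 5.65% of all merged regions, 1623 (88.3%) had a region with another factor, or the end of the list, on both sides. A further 186 formed 93 pairs of neighbours with no other factor's region between them, 21 formed 7 groups of 3, and 8 formed 2 groups of 4. The groups of 4 spanned 27883 bp at chr11:97436256-97464139 and 111812 bp at chr14:70605496-70717308. The median gap from 1 Hdac1-alone region to the next was 158806 bp (147528 to 176268), and 145 regions, or 7.89%, had another within 10 kb. Of these, 28 had another within 500 bp.

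The most crowded stretch of up to 1 Mb held 10 Hdac1-alone regions and ran between summits at 51755660 and 52744207 on chromosome 7. It held 49 Hdac1 peaks in all. Apart from stretches that overlap it, those with 9 Hdac1-alone regions were a pair on chromosome 10 with 39 Hdac1 peaks each, 1 on chromosome 15 with 35 and 1 on chromosome 14 with 23. Over the whole list, 11.2% of Hdac1 peaks were alone. These stretches were singled out after their values were seen, and none was tested.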
